A study of Mus musculus with 2 samples.

Results

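Endothelial and mural nuclei of the mouse amygdala, the cells that form and wrap the brain's small vessels, were described in 2 single-nucleus RNA libraries. Nuclei were taken with at least 500 detected genes, at most 4000 genes and at most 5% of UMIs (unique molecular identifiers, 1 per captured RNA molecule) from mitochondrial genes. A nucleus counted as endothelial with at least 2 of Flt1, Cldn5, Pecam1, Slco1a4 and Adgrl4, and as mural with at least 2 of Vtn, Pdgfrb, Rgs5, Kcnj8 and Atp13a5. It could hold no UMI of the neuron genes Gad1, Gad2 and Slc17a7 and no more than 1 of the fibroblast genes Dcn, Slc6a13 and Col1a2. These rules gave 132 nuclei of the 16356 that passed the filters. There were 25 endothelial nuclei, 99 mural nuclei and 8 nuclei that met both rules and were kept out of both types. The KO library held 11 endothelial, 44 mural and 3 double nuclei among 6952, and the WT library 14, 55 and 5 among 9404. The nuclei were chosen by detected UMIs of these genes, so the levels of the 10 marker genes are given as descriptions.

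The study profiled the amygdala of mice aged 6 to 8 weeks with a droplet kit that reads the 5′ end of transcripts. There was 1 library of genotype Sema6d-/- (KO), which lacks the transmembrane guidance protein semaphorin 6D by its label, and 1 library of genotype WT. Both carry the strain label C57BL6/J, and neither the number of animals in a library nor their sex is given in the sources used here. With 1 library per genotype, a KO to WT difference has no replicate check and was not tested; intervals are 95% and cover counting error only. Sema6d stood at 642.3 CPM (UMIs per 1e+06 UMIs of the nuclei summed) in KO and 612.5 CPM in WT over all nuclei outside the rules. The deleted part of the gene is not given here and the kit reads 5′ ends, so this level does not check the genotype label. KO and WT below therefore mean the libraries so labelled.

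In the brain, endothelial cells line the capillary and carry the blood-brain barrier: tight junctions seal the cell borders, and transporters and efflux pumps in the membrane decide what passes. Pericytes sit on the outer side of the capillary inside the same basement membrane, and smooth muscle cells take their place on arterioles. Endothelial cells recruit pericytes by releasing PDGF-B, which acts on the receptor encoded by Pdgfrb, and pericytes in turn help to hold the barrier closed.

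The 132 nuclei were small beside the rest of the tissue. Endothelial nuclei held a median of 1319 UMIs in KO (range 886 to 2936) and 1194 UMIs in WT (680 to 4202). Mural nuclei held a median of 1164 UMIs in KO (690 to 3550) and 1270 UMIs in WT (667 to 9411), against medians of 5378 and 6737.5 UMIs over all passing KO and WT nuclei. In all, 16944 KO and 20486 WT UMIs came from endothelial nuclei and 79302 KO and 100586 WT UMIs from mural nuclei, so only genes of moderate or high level could be compared. The median mitochondrial share was 1.06% in KO and 1.84% in WT endothelial nuclei, 0.848% in KO and 1.97% in WT mural nuclei, and 0.469% in KO and 0.786% in WT nuclei of other types. Scrublet, a doublet caller, marked 1 KO and 2 WT members, and 128 barcodes occurred in both libraries, among them 1 member in each.

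The endothelial label held for most of its nuclei in both libraries, while the mural label held for part of its nuclei. Of 11 pericyte markers outside the rule, none was seen in 7 of 11 KO and 13 of 14 WT endothelial nuclei. In each library 1 endothelial nucleus held 3 of them, and 1 WT endothelial nucleus held 5 of 7 astrocyte markers. Of 99 mural nuclei, 28 carried at least 4 of 7 astrocyte markers (Slc1a2, Slc1a3, Gja1, Aqp4, Aldh1l1, Slc4a4 and Gpc5), namely 15 of 44 in KO (34.1%, exact interval 20.5 to 49.9%) and 13 of 55 in WT (23.6%). These astrocyte-marked nuclei reached 26453 CPM of astrocyte markers in KO and 26147 CPM in WT. The 11 pericyte markers that the rule did not use (among them Abcc9, Higd1b, Notch3, Cspg4, Anpep, Ndufa4l2, P2ry14, Slc38a11, Art3 and Gper1) summed to 4 UMIs there in KO and 7 UMIs in WT. None of the 11 was seen in 13 of the 15 KO and 9 of the 13 WT astrocyte-marked nuclei, so the data go against the mural label for these. Of the others, 1 KO nucleus held 2 and 1 WT nucleus held 4 of the 11 beside 5 astrocyte markers each.

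A further 61 nuclei had at least 2 of the 11 pericyte markers and fewer than 4 astrocyte markers, 24 in KO (54.5% of mural nuclei, 38.8 to 69.6%) and 37 in WT (67.3%). They are called pericyte-marked nuclei, a division made after the data had been seen. All 11 markers were present, with 125 UMIs (4892 CPM) in KO and 221 UMIs (4083 CPM) in WT. Astrocyte markers summed to 1096 CPM there in KO and 1460 CPM in WT, with Aqp4 and Aldh1l1 at 0 in both. The other 5 KO and 5 WT mural nuclei fell in neither class. Where the kinds of mural nuclei differ, values of the pericyte-marked nuclei are given beside those of the whole mural rule.

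Nuclei near the threshold of the mural rule were as follows. Those with only 1 mural rule gene, just outside, numbered 193 in KO and 177 in WT and held 74.4 and 70.5 CPM of the pericyte markers. Nuclei with exactly 2, just inside, numbered 21 in KO and 23 in WT and held 396 and 921 CPM, with astrocyte markers at 19663 and 17084 CPM. With 3 or more rule genes, 23 KO and 32 WT nuclei held 3847 and 4269 CPM of pericyte markers and 7174 and 3267 CPM of astrocyte markers. For the endothelial rule, 28 KO and 26 WT nuclei with 1 gene held 515 and 275 CPM of the VEGF, angiopoietin and Tie genes. The 3 KO and 3 WT nuclei with exactly 2 endothelial genes held 3560 and 2660 CPM of that list, and those with 3 or more held 2947 and 1495 CPM.

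**Figure D1:**
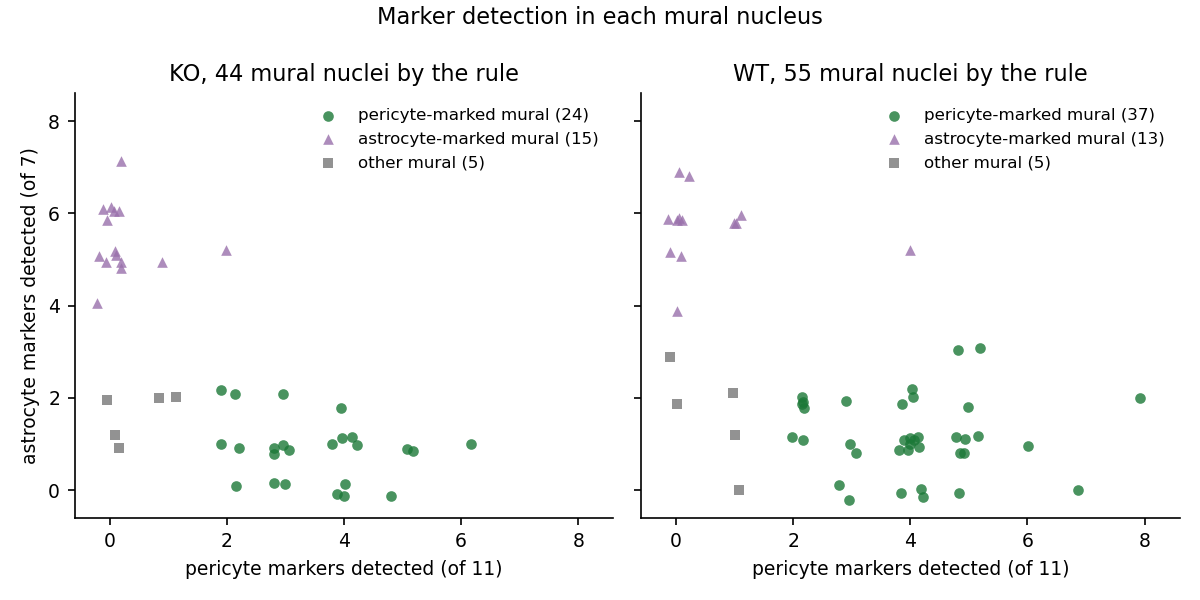
Each point is 1 mural nucleus, drawn with a small random shift, with pericyte markers detected (of 11) across and astrocyte markers detected (of 7) up, in a KO and a WT panel. In both libraries the nuclei form separate arms: 24 KO and 37 WT pericyte-marked nuclei, and 15 KO and 13 WT astrocyte-marked nuclei that mostly have 0 pericyte markers.

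Endothelial nuclei made up 0.158% of passing nuclei in KO (exact binomial interval 0.0790 to 0.283%) and 0.149% in WT (0.0814 to 0.25%). Mural nuclei by the rule made up 0.633% in KO (0.460 to 0.849%) and 0.585% in WT (0.441 to 0.761%). Pericyte-marked nuclei made up 0.345% in KO (0.221 to 0.513%) and 0.393% in WT (0.277 to 0.542%). Each interval covers the counting of nuclei within 1 library, and no difference in share between the genotypes was tested. There were 4.0 mural nuclei per endothelial nucleus in KO (2.03 to 8.59) and 3.93 in WT (2.16 to 7.65), or 2.18 and 2.64 pericyte-marked nuclei per endothelial nucleus. Fibroblasts, counted as nuclei with 2 or more of Dcn, Slc6a13 and Col1a2 under the same filters, stood apart: 45 nuclei in KO (0.647%) and 7 in WT (0.0744%).

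**Figure D2:**
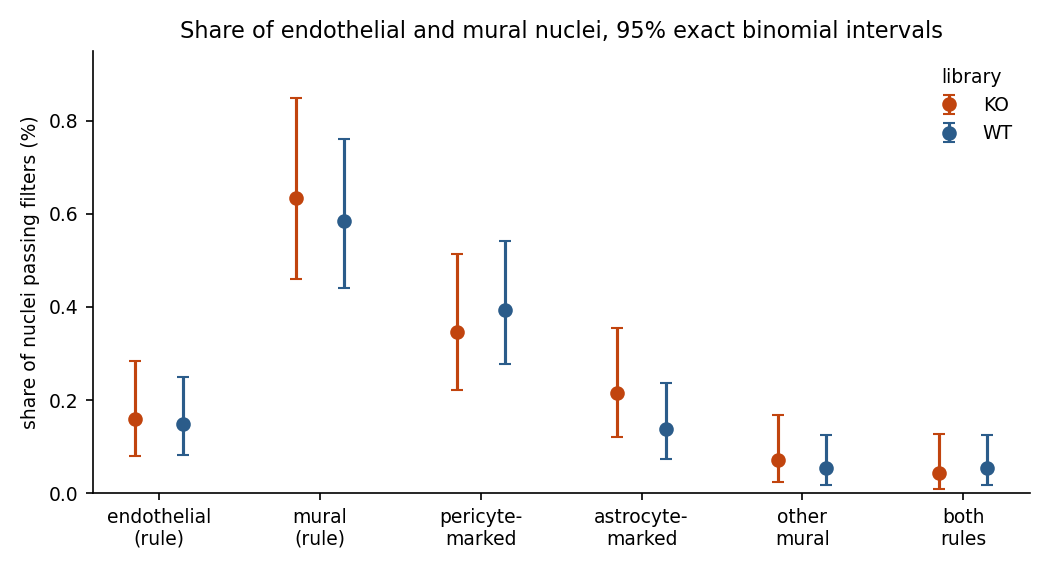
Shares of passing nuclei (percent, points with exact 95% binomial intervals) that were endothelial or mural by the rule, were of each mural kind or met both rules, with KO left of WT in each pair. The intervals cover counting error only; endothelial nuclei stand at 0.158% in KO and 0.149% in WT and mural nuclei at 0.633% in KO and 0.585% in WT.

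Slco1a4, Atp10a, Mecom and Pltp had the largest ratios of endothelial over mural nuclei. Counted over genes with at least 20 UMIs, 83 of 2498 (3.32%) were at least 4-fold higher in endothelial than in mural nuclei in both libraries, and 37 (1.48%) at least 4-fold higher in mural nuclei. Against pericyte-marked nuclei, 77 of 1207 genes (6.38%) were at least 4-fold higher in endothelial nuclei and 50 (4.14%) at least 4-fold lower. Since the rule chose nuclei on these transcripts, none of these counts is a test. Against pericyte-marked nuclei the gene with the largest ratio was Hbb-bs, a haemoglobin gene of red blood cells, with 21 UMIs in 3 KO endothelial nuclei and 145 UMIs in 1 WT endothelial nucleus.

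Slco1a4, an organic anion transporter of the brain endothelium and a rule gene, had 50 UMIs in 8 of 11 KO endothelial nuclei and 39 UMIs in 11 of 14 WT endothelial nuclei. No mural nucleus of either library had a UMI of it. Set against a floor of 3 counts per library in pericyte-marked nuclei, that is at least 25.1-fold higher in KO and at least 34.3-fold higher in WT endothelial nuclei. Per nucleus the median was 2 UMIs in KO and 2 in WT, and the highest 16 and 8. Free RNA can put a UMI in a nucleus that does not express the gene. As its measure, nuclei with a UMI of Gad1, Gad2 or Slc17a7, which should lack the transporter, had Slco1a4 in 0.403% of KO and 0.206% of WT nuclei at median depths of 6981 and 7396 UMIs. Thinned to 1000 UMIs, it remained in 7 of 9 KO and 5 of 8 WT endothelial nuclei.

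Other rule genes were seen in varying shares of the endothelial nuclei. Adgrl4, an adhesion receptor of endothelial cells, had 39 KO and 25 WT UMIs and was seen in 10 of 11 and 11 of 14 nuclei. Flt1, the VEGF receptor 1 that binds VEGF away from the main receptor, had 52 UMIs in KO and 61 in WT (3069 and 2978 CPM). It was not wholly absent from the vessel wall outside: 4 KO and 4 WT UMIs fell in pericyte-marked nuclei, and the level was 19.6-fold higher in KO and 40.3-fold higher in WT endothelial nuclei, with intervals from 7.2 to 74.6 and from 15 to 152.6. Cldn5, the main claudin of the barrier's tight junctions, had 12 and 7 UMIs, and the adhesion molecule Pecam1 8 and 6.

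Genes outside the rule also carried the type. Mecom, a zinc finger transcription factor, had 52 KO and 34 WT UMIs (3069 and 1660 CPM) in endothelial nuclei and none in mural nuclei. Atp10a, a phospholipid flippase, had 48 KO and 26 WT UMIs. The glucose transporter gene Slc2a1, which feeds the brain across the endothelium, had 32 KO and 23 WT UMIs (1889 and 1123 CPM), 48.3-fold over pericyte-marked nuclei in KO (8.1 to 1965) and 30.4-fold in WT (7.5 to 265.9). The tyrosine phosphatase gene Ptprb, a partner of the Tie2 receptor, had 23 and 20 UMIs, and the efflux pump gene Abcb1a 21 and 17 UMIs. Ptprb, Abcb1a, the Tie2 gene Tek, the ETS factor gene Erg and the flow-responsive factor genes Klf2 and Klf4 had no UMI in any mural nucleus.

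The windows before the start of 3 endothelial and 2 mural rule genes are shown because the endothelium is known for transcription factors of the ETS family, among them Fli1 and Erg, whose sites share a core. Each is the 250 bases upstream of the RefSeq gene start in build GRCm38.p6, 5′ to 3′ on the gene's strand, with AGGAAG or its reverse complement in capitals. That string is longer than the core, so a window without capitals can still hold the core.
Slco1a4, chr6:141856221-141856470, minus strand: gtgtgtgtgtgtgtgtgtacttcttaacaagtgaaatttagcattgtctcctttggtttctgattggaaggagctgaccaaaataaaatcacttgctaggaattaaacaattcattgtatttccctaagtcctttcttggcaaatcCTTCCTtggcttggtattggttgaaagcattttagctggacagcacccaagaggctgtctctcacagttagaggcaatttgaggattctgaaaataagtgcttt
Adgrl4, chr3:151437632-151437881, plus strand: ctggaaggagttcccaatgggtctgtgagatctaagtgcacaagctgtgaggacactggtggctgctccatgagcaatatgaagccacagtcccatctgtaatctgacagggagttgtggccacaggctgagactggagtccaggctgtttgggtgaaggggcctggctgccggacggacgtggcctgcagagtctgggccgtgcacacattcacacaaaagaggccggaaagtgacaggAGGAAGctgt
Flt1, chr5:147726012-147726261, minus strand: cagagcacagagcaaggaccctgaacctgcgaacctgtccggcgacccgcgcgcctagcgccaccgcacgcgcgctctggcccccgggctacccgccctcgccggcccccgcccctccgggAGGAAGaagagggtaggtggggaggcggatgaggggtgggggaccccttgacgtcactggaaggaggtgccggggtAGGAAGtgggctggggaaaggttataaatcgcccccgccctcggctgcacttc
Rgs5, chr1:169655251-169655500, plus strand: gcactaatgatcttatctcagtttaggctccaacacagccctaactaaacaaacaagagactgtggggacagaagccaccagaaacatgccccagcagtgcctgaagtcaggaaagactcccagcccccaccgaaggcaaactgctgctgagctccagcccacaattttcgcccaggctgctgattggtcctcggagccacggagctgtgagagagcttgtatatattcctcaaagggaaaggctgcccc
Vtn, chr11:78498870-78499119, plus strand: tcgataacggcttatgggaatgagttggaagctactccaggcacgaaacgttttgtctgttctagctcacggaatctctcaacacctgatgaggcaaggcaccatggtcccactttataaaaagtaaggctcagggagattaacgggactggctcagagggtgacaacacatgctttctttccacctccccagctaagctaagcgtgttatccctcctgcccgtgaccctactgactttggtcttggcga

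There was 1 match in the Slco1a4 window, 1 in that of Adgrl4, 2 in that of Flt1 and 0 in those of Rgs5 and Vtn. The mural rule gene Atp13a5, whose window is not shown, also had 1. Among the named endothelial-high genes found in the RefSeq table, 6 of 9 (66.7%) had AGGAAG on either strand in such a window, against 3 of 12 named mural-high genes (25%) and 32.3% of all 27018 genes there. The endothelial-high genes were named against all mural nuclei by the rule, and the mural-high genes by setting pericyte-marked against endothelial nuclei. For 2 other motifs searched the same way, GGGCGG stood in 66.7%, 58.3% and 35.4% of the 3 sets, and TATAAA in 11.1%, 8.33% and 14.3%. The motifs were chosen with the genes known, so these shares are descriptions of letters and carry no test.

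Among the genes highest in mural over endothelial nuclei by the rule were Luzp2, Ptprz1 and Ntsr2, whose UMIs lay mostly in astrocyte-marked nuclei: of Luzp2, 122 of 124 KO and 127 of 130 WT UMIs. The potassium channel gene Kcnd2, also among them, had 85 of 90 KO and 37 of 94 WT UMIs there. Against endothelial nuclei, pericyte-marked nuclei were led by Atp13a5 and Arhgap6. Atp13a5, a P-type ATPase of brain pericytes and a rule gene, had 121 UMIs in 24 of 24 KO and 170 UMIs in 35 of 37 WT pericyte-marked nuclei, with a median of 4 UMIs per nucleus in each library. It had none in endothelial nuclei, so pericyte-marked nuclei were at least 26.7-fold higher in KO and at least 21.4-fold higher in WT. Nuclei with a Gad1, Gad2 or Slc17a7 UMI showed it in 1.63% in KO and 1.5% in WT. Rgs5, a regulator of G protein signalling, had 30 KO and 42 WT UMIs, in 18 of 24 (75.0%) and 21 of 37 (56.8%) nuclei. Neuron-marked nuclei showed Rgs5 in 0.530% in KO and 0.426% in WT. The receptor gene Pdgfrb had 26 UMIs in 14 of 24 KO nuclei and 42 UMIs in 26 of 37 WT nuclei.

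Transport genes that the rule did not use came next. Slc6a20a, an amino acid transporter, had 54 KO and 108 WT UMIs (2114 and 1995 CPM) in pericyte-marked nuclei, against 1 and 0 in endothelial nuclei. The phosphodiesterase gene Pde8b had 92 KO and 145 WT UMIs, 10.2-fold over endothelial nuclei in KO (4.5 to 28.4) and at least 18.3-fold in WT. Abcc9, the regulatory subunit of the pericyte ATP-sensitive potassium channel, had 27 and 41 UMIs, and Kcnj8, its pore and a rule gene, 6 and 6. Plce1, a phospholipase C, had 34 and 72 UMIs. Arhgap6 had 31 KO and 58 WT UMIs, and the glycosyltransferase gene Galnt17 22 and 33, against 1 KO and 1 WT UMI of each in endothelial nuclei. Lhfp was also high (33 and 46 UMIs) but not particular to these nuclei among the mural ones: 33 KO and 37 WT UMIs lay in astrocyte-marked nuclei.

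**Figure D3:**
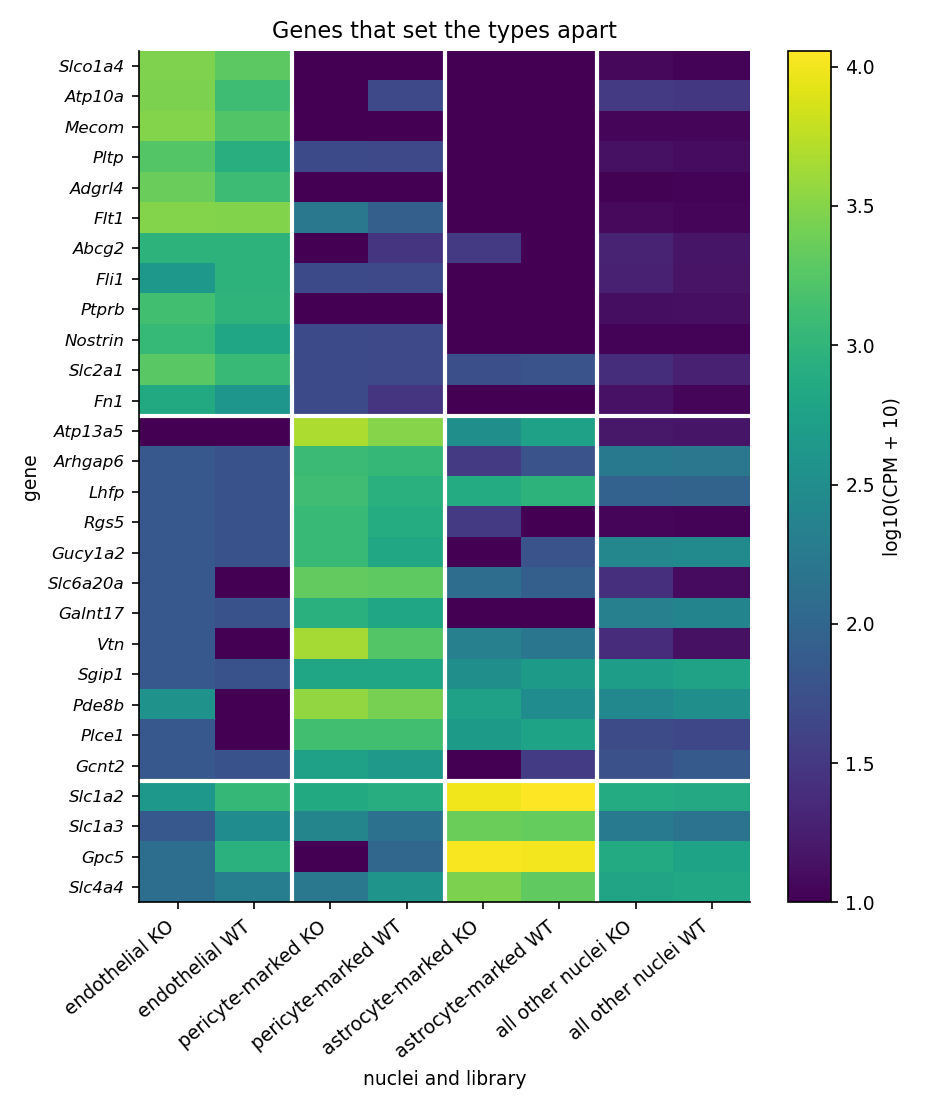
Colour gives log10(CPM + 10) of the leading endothelial genes (top block), the leading mural genes (middle block) and 4 astrocyte markers (bottom block), in endothelial, pericyte-marked, astrocyte-marked and all other nuclei, KO left of WT in each pair. Slco1a4, Mecom and Flt1 are high in endothelial nuclei of both libraries, Atp13a5, Slc6a20a and Pde8b in pericyte-marked nuclei of both, and Slc1a2 and Gpc5 in astrocyte-marked nuclei.

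Capillary markers were found in more endothelial nuclei than arterial or venous ones. At least 2 of 7 capillary markers were seen in 7 of 11 KO and 5 of 14 WT endothelial nuclei. At least 2 of 11 arterial markers were seen in 2 and 2, and at least 2 of 8 venous markers in 3 and 1. The lists also differed outside the vessels. All other nuclei held a mean of 0.806 capillary markers in KO and 0.901 in WT, 0.403 and 0.480 arterial, and 0.164 and 0.150 venous ones. The capillary marker Mfsd2a had no UMI in endothelial nuclei of either library. Smooth muscle was rare among mural nuclei. The contractile genes Acta2 and Myh11 had 2 and 6 UMIs in KO and 0 and 4 in WT pericyte-marked nuclei, and 1 KO and 4 WT nuclei held at least 2 of 8 smooth muscle markers. Carmn, a long non-coding RNA of mural and smooth muscle cells, supplied most of the list's UMIs there, with 31 in KO and 38 in WT. Plvap, the diaphragm protein of leaky vessels, had 0 UMIs in KO and 0 in WT endothelial nuclei.

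RNA of other cell types was present and was not the same in the libraries. Neuron markers summed to 1475 CPM in KO and 3222 CPM in WT endothelial nuclei, and to 1879 and 3714 CPM in KO and WT pericyte-marked nuclei. Oligodendrocyte markers summed to 2302 and 2197 CPM in KO and WT endothelial nuclei and to 1448 and 2180 CPM in KO and WT pericyte-marked nuclei. Over all other nuclei the neuron markers summed to 11545 CPM in KO and 11805 CPM in WT and the oligodendrocyte markers to 1793 and 883 CPM. In WT, 1 pericyte-marked nucleus of 9411 UMIs held much of the neuronal RNA, and 1 endothelial nucleus of 4202 UMIs carried 5 of the 7 astrocyte and 6 of the 7 oligodendrocyte markers. Without the first, WT neuron markers summed to 2706 CPM in pericyte-marked nuclei. Astrocyte markers summed to 708 CPM in KO and 2538 CPM in WT endothelial nuclei, or 798 CPM in WT without the second. Values without these nuclei are given below beside most list medians and genes past the fold. Their part, and that of neuronal RNA and of the higher mitochondrial share in WT, in KO to WT differences was not tested.

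Among endothelial nuclei, 37 of 230 genes with at least 20 UMIs (16.1%) were at least 2-fold higher in KO than in WT, a log2 ratio of 1 or more, and 31 (13.5%) at least 2-fold lower. The median log2 ratio of all 230 genes was 0.27, so a gene's ratio is read against that value; it was -0.04 with edgeR's TMM scaling (20 genes past the fold upward and 42 downward) and -0.12 with median-of-ratios scaling (17 and 47). Without the glia-marked WT nucleus, 25 of 186 genes were past the fold upward and 17 downward, with a median of 0.19. Of the 230 genes, 63.0% were higher in KO at all, or 46.1% with TMM and 45.7% with median-of-ratios scaling. In such bulk sums, fewer nuclei of a kind and less RNA per nucleus cannot be told apart.

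Barrier transporter genes had a median ratio above that of all endothelial genes, and nearer to it without 1 WT nucleus. Of 20 members, 17 were detected and 9 had at least 20 UMIs; all 9 were higher in KO, but 6 under TMM or median-of-ratios scaling, where Abcg2, Slc7a1 and Slc6a6 turned. Past 2-fold were Slco1c1 and Atp10a, 2 of 9 beside 16.1% of all genes, and both fell short of it with TMM (0.89 and 0.84). The median log2 ratio of the 9 was 0.58 beside 0.27 for all genes tested, and without the glia-marked nucleus it was 0.25 beside 0.19, with 7 higher and 2 lower. The list summed to 12984 CPM in KO and 8591 CPM in WT. Atp10a had 2833 CPM in KO and 1269 CPM in WT, a log2 ratio of 1.16 (0.44 to 1.91), or 0.94 without that nucleus. Slco1c1, the thyroxine transporter of the barrier, had 21 KO and 11 WT UMIs, of which 13 of the 21 came from 1 KO nucleus. Its log2 ratio was 1.21 (0.09 to 2.41), and -0.021 when nuclei with Slc17a6 or Slc32a1, genes of further neuron classes, were also left out.

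Slc2a1 was seen in 10 of 11 KO and 8 of 14 WT nuclei, with a log2 ratio of 0.75 (-0.07 to 1.59), or 0.62 without the glia-marked nucleus. The multidrug pumps Abcb1a, Abcc4 and Abcg2 stood at log2 ratios of 0.58, 0.67 and 0.03. The amino acid transporters Slc7a1 and Slc7a5 had 13 and 11 UMIs in KO and 15 and 9 in WT. Outside the list, Pltp, a phospholipid transfer protein, had 29 KO and 17 WT UMIs, a log2 ratio of 1.04 (0.13 to 2.0), or 0.71 without that nucleus. Pltp also fell short of the fold under TMM and median-of-ratios scaling.

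Endothelial transcription factors differed in both directions. Of the 5 list members with at least 20 UMIs, 4 were higher in KO (3 under TMM and under median-of-ratios scaling, where Foxp1 turned), with a list median of 0.86, or 0.69 without the glia-marked nucleus. Epas1, the oxygen-regulated factor HIF-2alpha, had 27 UMIs (1593 CPM) in KO and 15 UMIs (732 CPM) in WT. Its log2 ratio was 1.12 (0.16 to 2.14), or 1.11 without that nucleus. Under TMM and under median-of-ratios scaling it fell short of the fold. Mecom stood at 0.89, or 0.69 without that nucleus. Fli1, an ETS factor, was the lower one, with 7 KO and 19 WT UMIs (413 and 927 CPM) and a log2 ratio of -1.17 (-2.66 to 0.15). It was -1.25 without the glia-marked nucleus and turned to 0.52 when nuclei with UMIs of the 3 neuron genes were kept. Erg had 8 KO and 5 WT UMIs, too few for the list's count.

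Other endothelial genes past the fold were spread over several roles. Prkg1, the cGMP-dependent kinase, had 36 KO and 13 WT UMIs, a log2 ratio of 1.74 (0.79 to 2.78), with 17 of the 36 in 1 KO nucleus, and 1.79 without the glia-marked WT nucleus. The glucocorticoid receptor gene Nr3c1 had 15 KO and 5 WT UMIs (1.86, interval 0.33 to 3.67, or 1.53 without that nucleus). Plcb4, a phospholipase C, had 23 and 11 (1.34, or 1.47 without that nucleus) and fell short of the fold under median-of-ratios scaling. The secreted matrix protein gene Sparcl1 had 1416 CPM in KO and 439 CPM in WT (1.69, interval 0.53 to 2.98; 1.72 without that nucleus); it also stood at a log2 ratio of 0.63 over all other nuclei. Sema3c, a secreted semaphorin that acts through neuropilins and plexins, went the other way, with 6 UMIs in 5 of 11 KO nuclei and 31 UMIs in 8 of 14 WT nuclei (354 and 1513 CPM). Its log2 ratio was -2.10 (-3.65 to -0.81), or -2.43 without the glia-marked nucleus, and 2 WT nuclei with 11 and 8 UMIs carried much of it. Over nuclei of other types Sema3c stood at 19.4 CPM in KO and 11.5 CPM in WT.

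Junction, VEGF and Wnt genes were mostly too low to compare. Of 14 junction genes, 2 had at least 20 UMIs; the scaffold gene Tjp1 had 21 KO and 31 WT UMIs, a log2 ratio of -0.29, or -0.47 without the glia-marked nucleus. Among VEGF, angiopoietin and Tie genes only Ptprb reached that number (0.48, or 0.14 without it), while Tek had 10 and 5 UMIs and Kdr, the main VEGF receptor, 3 and 3. Lef1, the transcription factor of the Wnt and Norrin signal that induces the barrier, had 23 KO and 18 WT UMIs (0.63, or 0.30 without it), and the receptor gene Fzd6 11 and 5. The 6 caveolae and leakage genes together had 9 KO and 13 WT UMIs.

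Among mural nuclei by the rule, 130 of 1958 genes (6.64%) were at least 2-fold higher in KO and 197 (10.1%) at least 2-fold lower, with a median log2 ratio of 0.02. Among pericyte-marked nuclei, 49 of 656 genes (7.47%) were higher and 116 (17.7%) lower, with a median of -0.01. Without the WT nucleus of 9411 UMIs, 36 of 529 genes were higher and 51 lower. Median-of-ratios scaling shifted the pericyte-marked median to -0.42 and the split to 14 higher and 178 lower.

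Basement membrane and integrin genes, which build and bind the sheet around the capillary, had a median ratio above that of all genes in pericyte-marked nuclei. Of 26 members, 10 had at least 20 UMIs and 8 of these were higher in KO (6 under median-of-ratios scaling), with a median log2 ratio of 0.66 beside -0.01 for all genes tested, of which 49.8% were higher. The list holds the rule gene Vtn, on which nuclei were chosen; without Vtn, 7 of 9 were higher, with a median of 0.50. Without the WT nucleus of 9411 UMIs the median of all 10 was 0.38 beside -0.02, and of the 9 it was 0.22. With at least 1000 genes required per nucleus the median of all tested members turned to -0.56. That setting kept the WT nucleus of 9411 UMIs, and its only KO pericyte-marked nuclei held 1890 and 2218 UMIs. Col4a1, a chain of collagen IV, had 17 UMIs in 10 of 24 KO nuclei and 9 UMIs in 6 of 37 WT nuclei (665 and 166 CPM). Its log2 ratio was 2.0 (0.75 to 3.35), or 1.72 without that nucleus. Col4a2, its partner chain, had 10 KO and 4 WT UMIs, below the 20 needed. The collagen-binding integrin gene Itga1 had 40 and 42 UMIs (1.01, interval 0.35 to 1.67; 0.77 without that nucleus). The laminin genes Lama2 and Lamc1 stood at 0.26 and -0.04, or 0.042 and -0.28 without that nucleus.

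Vtn, the adhesion protein vitronectin and a rule gene, had 112 UMIs in 23 of 24 KO nuclei and 94 UMIs in 33 of 37 WT nuclei, with medians of 4.5 and 2 UMIs per nucleus. The level was 4384 CPM in KO and 1737 CPM in WT, a log2 ratio of 1.34 (0.93 to 1.75), or 1.08 without the WT nucleus of 9411 UMIs. Vtn also stood at 14.2 CPM in KO and 3.6 CPM in WT over nuclei of other types, a log2 ratio of 1.98, and in 3.67% of KO and 1.57% of WT neuron-marked nuclei. The other rule genes differed less: Atp13a5 had 4736 CPM in KO and 3141 CPM in WT (0.59, interval 0.24 to 0.94), Rgs5 1174 and 776 CPM (0.60) and Pdgfrb 1018 and 776 CPM (0.39). Without that nucleus they stood at 0.35, 0.32 and 0.12.

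In the contraction list, 3 genes of the response to nitric oxide are described together; they were singled out after their values had been seen. Nitric oxide from the endothelium activates soluble guanylate cyclase, whose cGMP activates the kinase encoded by Prkg1 and relaxes mural cells. The cyclase subunit gene Gucy1a2, among the leading genes of pericyte-marked nuclei, was not on the list, and its ratio is not given here. The ratios below are lower under median-of-ratios scaling, which shifted the median of all genes to -0.42. Gucy1a1, a cyclase subunit, had 14 KO and 9 WT UMIs (548 and 166 CPM), a log2 ratio of 1.72 (0.41 to 3.11), or 1.61 without the WT nucleus of 9411 UMIs. Gucy1b1, its partner subunit, had 20 and 19 UMIs (783 and 351 CPM), a log2 ratio of 1.16 (0.18 to 2.14), or 0.96 without it. Prkg1 was seen in 24 of 24 KO and 35 of 37 WT nuclei, at 4462 and 2550 CPM (0.81, interval 0.44 to 1.18; 0.60 without it).

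Over the whole contraction, calcium and cyclic nucleotide list, 12 of 18 members had at least 20 UMIs, 8 higher and 4 lower in KO, with a median of 0.39. The median was 0.54 without the WT nucleus of 9411 UMIs and -0.02, with 6 higher and 6 lower, under median-of-ratios scaling. The kinase gene Rock1 was past the fold upward at 1.22, or 1.10 without that nucleus. The L-type calcium channel gene Cacna1c and the calcium release channel gene Itpr1 stood at 0.22 and 0.35, and the phosphodiesterase gene Pde3a at -0.32, against 0.22, 0.54 and -0.59 without it. Kcnma1, the large-conductance potassium channel, had 3 KO and 18 WT UMIs (-1.5), and 3 and 12 without that nucleus. With at least 1000 genes required its log2 ratio was 1.5, but the only KO pericyte-marked nuclei kept held 1890 and 2218 UMIs. A KO count of 0 is set to the floor of 3 there, so this value is not read as a change of direction.

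**Figure D4:**
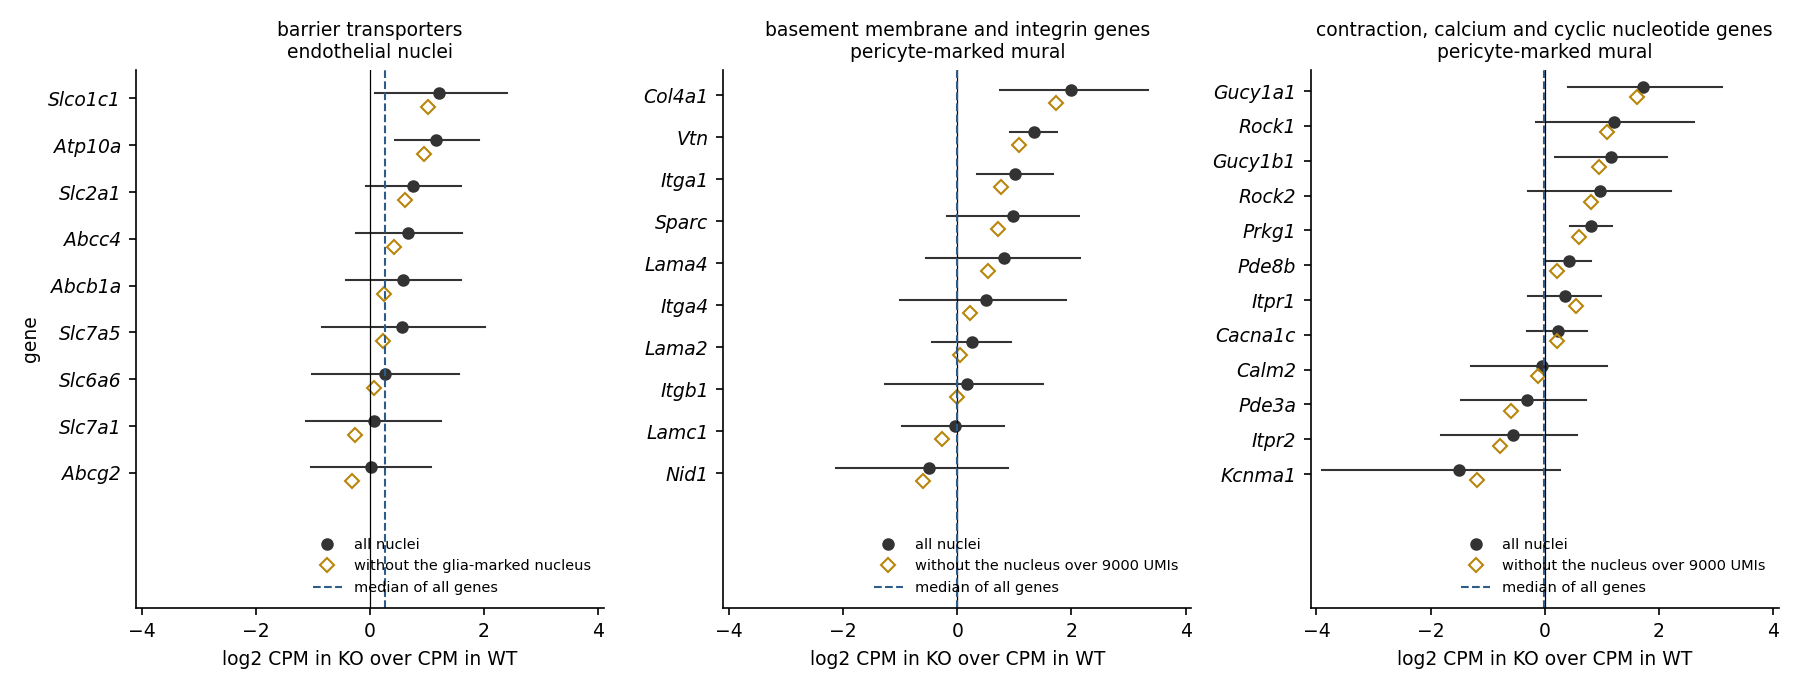
Points give the log2 KO to WT ratio of CPM, with 95% counting intervals as lines, for list members with at least 20 UMIs, in endothelial (left panel) and pericyte-marked nuclei (other panels). Diamonds give the ratio without the glia-marked or the 9411-UMI WT nucleus and the dashed line the median of all genes tested. The 9 barrier transporters lie above 0 with a median of 0.58, of which Abcg2, Slc7a1 and Slc6a6 turn under either other scaling, and 8 of the 10 basement membrane genes lie above 0 (6 under median-of-ratios scaling) with a median of 0.66.

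The 11 pericyte markers chose the pericyte-marked nuclei, so their ratios there are a description only. Of the 11, 8 had at least 20 UMIs: in pericyte-marked nuclei 5 were higher and 3 lower in KO, with a median log2 ratio of 0.20, which was -0.08 without the WT nucleus of 9411 UMIs and -0.22 under median-of-ratios scaling. Over the whole mural rule, 7 of the 8 were lower in KO, with a median of -0.47, beside the larger share of astrocyte-marked nuclei there. Ednra, the endothelin receptor that drives constriction, had 17 KO and 24 WT UMIs (0.59, or 0.31 without that nucleus). Gjc1, the gap junction protein connexin 45, had 12 and 10 UMIs (1.35, or 1.07 without that nucleus), and the chloride channel gene Ano1 17 and 32. Among mural transcription factors Ebf1 stood at -0.28 and Epas1 at -0.27, or -0.49 and -0.55 without it, while Meis2 had 0 KO and 23 WT UMIs. Against a floor of 3 counts per library Meis2 was at least 3.62-fold lower in KO, or at least 2.67-fold lower (0 and 14 UMIs) without that nucleus. With at least 1000 genes required, its log2 ratio of 0.18 set the KO count of 0 to that floor and gives no direction. Meis2 stood at 924 CPM in KO and 1126 CPM in WT over nuclei of other types.

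Several abundant genes outside the vessel lists differed in pericyte-marked nuclei. Sntb1, a syntrophin of the dystrophin complex, had 36 KO and 26 WT UMIs (1.55, interval 0.78 to 2.34; 1.28 without that nucleus). Among lower genes were Rtn3, a reticulon of the endoplasmic reticulum, with 6 KO and 44 WT UMIs (-1.79, interval -3.31 to -0.56; -2.0 without that nucleus), the myelin gene Mbp with 12 and 68 (-1.42) and the chaperone gene Hsp90ab1 with 7 and 36 (-1.28). Meg3, a neuron-rich RNA, had 10 and 66 UMIs (-1.64). Meg3 is itself a member of the neuron marker list and Mbp of the oligodendrocyte marker list. The sums of these lists, lower in KO than in WT pericyte-marked nuclei, include their UMIs and are no separate observation. With at least 1000 genes required per nucleus, Rtn3 and Hsp90ab1 stood at 0.28 and 0.76. The only KO pericyte-marked nuclei kept there held 1890 and 2218 UMIs, and a KO count of 0 is set to the floor of 3. The counts behind these 2 ratios are not given here, so they are not read as a change of direction.

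In the mural nuclei taken by the rule, Trpm3 and Ptgds had the most UMIs of both libraries among genes at least 2-fold higher in KO. Trpm3, a calcium-permeable channel, had 501 KO and 133 WT UMIs (6318 and 1322 CPM), a log2 ratio of 2.26 (1.98 to 2.54). Ptgds, the prostaglandin D2 synthase of the meninges, had 219 KO and 25 WT UMIs (2762 and 249 CPM), a log2 ratio of 3.47 (2.87 to 4.13). Trpm3 was seen in 20 of 44 KO and 18 of 55 WT mural nuclei, and Ptgds in 23 and 12. The highest values were 95, 93 and 65 UMIs of Trpm3 and 60, 41, 39 and 38 UMIs of Ptgds, all in KO nuclei.

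The nuclei with these values were not pericyte-marked. In pericyte-marked nuclei Trpm3 had 2 KO and 10 WT UMIs, a log2 ratio of -1.24, and Ptgds 20 and 8 UMIs, a log2 ratio of 2.40. Astrocyte-marked nuclei held 286 KO and 123 WT UMIs of Trpm3, and mural nuclei of neither class 213 and 0. The 45 KO fibroblasts held 22612 CPM of Trpm3 and 9919 CPM of Ptgds, while the 7 WT fibroblasts had 0 UMIs of either, and 5 KO and 2 WT mural nuclei carried at least 2 of 8 fibroblast markers outside the rule. Those markers summed to 3321 CPM in KO and 2001 CPM in WT over the 5 KO and 5 WT mural nuclei of neither class, to 665 and 739 CPM over KO and WT pericyte-marked nuclei, and Lum and Slc47a1 were at 0 in all mural nuclei. Ptgds was also higher in KO over nuclei of other types, at 430.3 CPM in KO and 64.6 CPM in WT, a log2 ratio of 2.74. The part of fibroblast RNA in these differences was not tested.

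Further genes at least 2-fold higher in KO under the mural rule had few UMIs in pericyte-marked nuclei. The adhesion molecule gene Alcam had 113 KO and 46 WT UMIs (1.64), the neuregulin receptor gene Erbb4 71 and 29 (1.63), the oxidoreductase gene Wwox 52 and 21 (1.65) and the zinc transporter gene Slc39a12 36 and 20 (1.19). Naaladl2 had 36 and 16 (1.51) and Plcb4 48 and 24 (1.34). In pericyte-marked nuclei Alcam had 5 KO and 21 WT UMIs, a log2 ratio of -0.99 (-2.75 to 0.46). The other 5 were below 20 UMIs there, with 2 KO and 10 WT for Erbb4, 4 and 11 for Wwox, 1 and 0 for Slc39a12, 2 and 3 for Naaladl2 and 8 and 5 for Plcb4. Among genes lower in KO under the rule were Nkain2 with 29 KO and 102 WT UMIs (-1.47) and the pericyte transcription factor gene Ebf1 with 62 and 158 (-1.01).

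**Figure D5:**
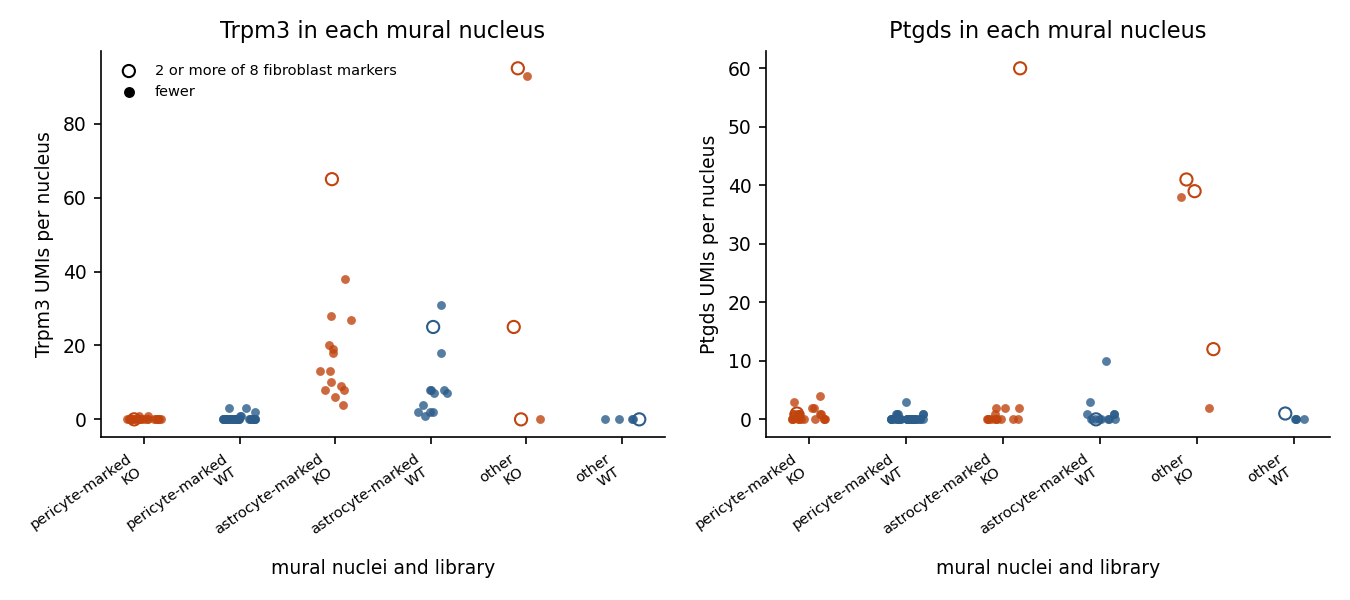
UMIs of Trpm3 (left) and Ptgds (right) in each mural nucleus, by kind of nucleus and with KO left of WT; open circles mark nuclei with 2 or more of 8 fibroblast markers. The high Trpm3 values (95, 93 and 65 UMIs) and Ptgds values (60, 41, 39 and 38 UMIs) lie in KO nuclei that are not pericyte-marked.

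Signals that pass between the types were seen at low level. Pdgfb, the ligand for Pdgfrb, had 2 KO and 1 WT UMIs in endothelial nuclei, and Pdgfd, a second ligand of that receptor, 13 and 22 (767 and 1074 CPM, a log2 ratio of -0.49). The Notch receptors were split between the types: Notch4 had 5 KO and 5 WT UMIs in endothelial nuclei, and Notch3 12 and 22 in pericyte-marked nuclei. Immediate early genes summed to 45 UMIs (2656 CPM) in KO and 20 UMIs (976 CPM) in WT endothelial nuclei, with no single member at 20 UMIs. Heat shock genes in endothelial nuclei summed to 2597 CPM in KO and 2294 CPM in WT, and the MHC and activation genes to 2007 and 1562 CPM.

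The lists shared by both types were otherwise thin. TGF-beta and BMP genes had 52 KO and 45 WT UMIs in endothelial nuclei and 42 and 83 in pericyte-marked nuclei, with 0 and 1 of 20 members at 20 UMIs. Hypoxia and glycolysis genes summed to 4780 CPM in KO and 2538 CPM in WT endothelial nuclei, where Slc2a1 and Epas1 were the 2 members that could be compared. In pericyte-marked nuclei the same list summed to 744 CPM in KO and 758 CPM in WT. Glucocorticoid response genes summed to 4249 CPM in KO and 3368 CPM in WT endothelial nuclei and to 1683 and 1829 CPM in KO and WT pericyte-marked nuclei.

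Semaphorin genes, the family of the mutated gene, reached 20 UMIs for few members. Sema6d itself had 0 KO and 1 WT UMIs in endothelial nuclei and 8 KO and 37 WT UMIs in pericyte-marked nuclei, a log2 ratio of -1.13. Of the 37 WT UMIs, 22 lay in the nucleus of 9411 UMIs; without it the counts were 8 and 15 and the log2 ratio -0.10. Sema5a, a transmembrane semaphorin, had 21 and 38 UMIs in pericyte-marked nuclei (0.23), and its ratio turned below 0 without that nucleus (21 and 38 UMIs, -0.048) and under median-of-ratios scaling. Sema3c, described above, was the single member of the list at 20 UMIs in endothelial nuclei. Of the ephrin, Slit and netrin genes, Dcc, the netrin receptor, had 2 KO and 34 WT UMIs in pericyte-marked nuclei, and 2 and 6 without the WT nucleus of 9411 UMIs.

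Epas1 was set apart by opposite directions in the types. In endothelial nuclei it was higher in KO (1.12), while in mural nuclei by the rule it had 11 KO and 32 WT UMIs, a log2 ratio of -1.20 (-2.33 to -0.17). In pericyte-marked nuclei it had 9 and 23 UMIs and a log2 ratio of -0.27. Nr3c1 was higher in KO in both types, at 1.86 in endothelial nuclei and 1.05 in mural nuclei by the rule (18 KO and 11 WT UMIs, interval -0.11 to 2.28), the second turning to -0.083 without glia-marked nuclei. The difference between the types was not tested in either case.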

How the data were processed

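The deposited values were raw UMI counts per Ensembl gene and barcode, which the authors made with Cell Ranger 6.0.0 against mm10, per the submitters' processing notes; for the annotation, intron handling and barcode calling, the settings are not given here. The deposited libraries held 8666 barcodes with 60402979 UMIs (KO) and 11060 with 85124128 (WT), over 32285 genes, of which 32158 IDs matched a symbol. The filters left out 143 KO and 12 WT barcodes under 500 genes, 390 and 257 over 5% mitochondrial UMIs and 1181 and 1387 over 4000 genes. Scrublet (scanpy 1.11.5, expected rate 0.8% per 1000 barcodes) marked 274 KO and 538 WT barcodes, and doublets were kept in except as an alternative. UMIs were summed per type and library and scaled to CPM (1e+06). Intervals are exact 95% binomial (Clopper-Pearson for shares, conditional for ratios), with a floor of 3 counts for 0, and cover counting error only. The settings were 20 UMIs over both libraries and a log2 ratio of 1, or 4-fold between types in both libraries. No test was run, as there was 1 library per genotype. The calculation was tested on simulated counts.

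Named genes were all rule genes, the leading genes between types, up to 8 per direction between genotypes in a type, from at least 10 nuclei with no more than 25% of UMIs in 1 nucleus, and up to 6 leading members or called members of each of 26 lists. Further genes (such as Trpm3, Ptgds, Sema3c and Meis2, and list members named for their role) were chosen after their values were seen. The nuclei, rules and lists were chosen with earlier results of these data known. Alternatives changed the filters, thresholds, scaling (edgeR 4.0.16 for TMM) and the nuclei kept. Promoter windows are from RefSeq. Computation used Python 3.11.15, numpy 2.4.6, scipy 1.17.1, pandas 2.3.3, matplotlib 3.10.9 and R 4.3.3.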

Additional observations from a re-analysis of the deposited data

Results flagged for a closer look

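Epas1 differed in opposite directions between the types, with a log2 KO to WT ratio of 1.12 in endothelial nuclei and -1.20 in mural nuclei by the rule. Gpc5, an astrocyte glypican, stood at -2.90 in endothelial and 0.57 in mural nuclei, and Slc1a2, the astrocyte glutamate transporter, at -1.38 and 0.19. Without the glia-marked WT nucleus, Gpc5 had 2 KO and 0 WT UMIs in endothelial nuclei and Slc1a2 stood at -0.57 (7 and 10 UMIs). None of these differences between types was tested. Among barcodes left out for over 5% mitochondrial UMIs, 1 of 428 in KO (0.234%) and 5 of 259 in WT (1.93%) met the mural marker rule.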

How the results depend on the processing

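With 1 library per genotype, no interval covers differences between animals, and with 25 endothelial and 99 mural nuclei most genes had too few UMIs to compare. No paired analysis was possible because each genotype had 1 library and no result came from a test. No replicate could be left out. Of the recomputed values, 101 counts of genes, 40 shares of nuclei, 282 list medians and 1335 ratios of named genes stayed close to the reported ones, and 47, 16, 11 and 67 moved without turning. A further 35 ratios of named genes turned in sign. Some of these, such as Meis2 and Slc39a12 in pericyte-marked nuclei, rest on a count of 0 set to the floor of 3 and give no direction. Where no reason is given, the cause was not tested.

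Counts of genes at least 2-fold higher and lower in KO were 37 and 31 (endothelial), 130 and 197 (mural by the rule) and 49 and 116 (pericyte-marked). With at least 10 UMIs they became 133 and 117, 420 and 576, and 205 and 367, since more genes were tested; with at least 50 UMIs 5 and 5, 17 and 44, and 7 and 27. At least 3 rule genes gave 45 and 113 (mural) and 23 and 36 (pericyte-marked). At least 1000 genes gave 15 lower (endothelial) and 18 and 48 (pericyte-marked), and at most 3000 genes 51 lower (pericyte-marked). A mitochondrial maximum of 2% gave 17, 112 and 77 lower (endothelial, mural, pericyte-marked). Without the neuron exclusion there were 138 and 186 (endothelial), 217 higher (mural) and 129 and 287 (pericyte-marked). Counting nuclei of both rules in both types gave 80 and 102 (endothelial). Without glia-marked nuclei there were 17 lower (endothelial) and 73 higher (mural), and without smooth muscle-marked nuclei 22 and 40 (pericyte-marked). TMM gave 20 higher (endothelial), and median-of-ratios scaling 17 and 47 (endothelial) and 14 and 178 (pericyte-marked). Chosen after seeing the data, pericyte-marked nuclei in place of all mural nuclei gave 49 and 116, or 36 and 51 without nuclei over 9000 UMIs, and that omission left 51 lower (pericyte-marked). Genes at least 4-fold apart between the types, 83 higher in endothelial and 37 in mural nuclei, became 50 and 22 with at least 1000 genes, and 24 in mural nuclei when Slc17a6 and Slc32a1 were excluded too.

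Shares of mural nuclei in KO and WT became 0.331% and 0.351% with 3 rule genes, 0.417% and 0.436% without glia-marked nuclei, 1.01% and 1.03% with at most 3000 genes, 0.334% and 0.254% with at least 1000 genes, 0.964% and 0.893% without the neuron exclusion, and 0.345% and 0.393% for pericyte-marked nuclei. The WT mural share was 0.339% with a mitochondrial maximum of 2%. The WT endothelial share was 0.266% with at most 3000 genes, 0.0551% with at least 1000 and 0.277% without the neuron exclusion.

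Ratios that turned were, with 3 rule genes, mural Bmp6 -0.73, Dcc 0.0079, Fkbp5 -1.14 and Wwox -0.14 and pericyte-marked Dcc 0.031. Without glia-marked nuclei, mural Erbb4 was -0.73, Nr3c1 -0.083 and Slc39a12 -0.86. With at least 1000 genes, pericyte-marked Hsp90ab1 was 0.76, Kcnma1 1.5, Magi1 1.5, Meis2 0.18, Robo1 0.62 and Rtn3 0.28. The only KO pericyte-marked nuclei kept by that setting held 1890 and 2218 UMIs, and the WT nuclei included that of 9411 UMIs. A KO count of 0 is set to the floor of 3, as for Meis2, so these values are not read as a change of direction. Without the neuron exclusion, endothelial Fli1 was 0.52, mural Robo2 0.42 and Unc5c 0.36. Endothelial Slco1c1 was -0.021 when Slc17a6 and Slc32a1 were excluded, and pericyte-marked Sema6d 0.084 without smooth muscle-marked nuclei. In pericyte-marked in place of all mural nuclei, Alcam was -0.99, Bmp6 -0.50, Erbb4 -1.24, Fkbp5 -1.50, Mgat4c -1.72, Slc39a12 -0.50, Trpm3 -1.24 and Wwox -0.38. Without nuclei over 9000 UMIs these were Alcam -0.33, Bmp6 -0.19, Erbb4 -1.36, Mgat4c -0.78, Slc39a12 -0.78, Trpm3 -1.0 and Wwox -0.51, and Ephb1 was 0.39. Slc39a12 had no WT UMI in pericyte-marked nuclei. Its values there, with and without nuclei over 9000 UMIs, set the WT count to the floor of 3 and give no direction.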
